A study of Mus musculus with 6 samples.

Results

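The 10 genes described here encode the enzymes and the transporter that start, extend and sulfate chondroitin sulfate chains: *Xylt1*, *Csgalnact1*, *Csgalnact2*, *Chsy1*, *Chsy3*, *Chpf*, *Chst3*, *Chst11*, *Papss2* and *Slc26a2*. They were taken by gene symbol from a table of 24532 mouse genes, and all 10 were present and had reads in every library, as did 14223 genes of the table. The RNA came from primary articular chondrocytes of ICR mice aged 5 days, taken from the knee ends of femur and tibia and grown in medium with 10% fetal bovine serum at 5% CO2 and 3% O2. Each culture was transfected 2 times with 50 nM siRNA for 12 h, followed by 48 h in fresh medium, after the cells had been treated with hyaluronidase, an enzyme that removes hyaluronan and also cuts chondroitin sulfate. One group of 3 libraries received negative control siRNA and the other group of 3 libraries received siRNA against *Sephs1*, a selenophosphate synthetase gene, so that the groups shared strain, age, transfection and enzyme treatment and differed in the siRNA. The question put to these genes was whether the machinery that makes the sulfated chains of cartilage changed when *Sephs1* was knocked down.

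Chondroitin sulfate is a long sugar chain carried by aggrecan and other proteoglycans, and its sulfate groups give cartilage the fixed negative charge that holds water under load. A chain is started on a serine of the core protein by a xylosyltransferase, which lays down the first sugar of a short linker. An N-acetylgalactosaminyltransferase then commits the linker to chondroitin rather than heparan sulfate, the synthases and the polymerizing factor alternate glucuronic acid with N-acetylgalactosamine, and sulfotransferases add sulfate at carbon 4 or carbon 6 of the N-acetylgalactosamine. Sulfate enters the cell through SLC26A2 and is activated to the donor PAPS by PAPS synthases. Loss of *SLC26A2*, *PAPSS2* or *CHST3* function causes skeletal dysplasia in humans.

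*Sephs1* mRNA was lower in each *Sephs1* siRNA library than in each control library. It stood at 50.7, 44.7 and 44.7 CPM (read counts scaled to library size, with TMM factors) in control replicates 1, 2 and 3, and at 36.1, 24.9 and 21.5 CPM in *Sephs1* siRNA replicates 1, 2 and 3. The knockdown was therefore partial, with a log2 fold change of -0.76 in edgeR (adjusted p = 0.392, or 0.0400 once the replicate number entered as a block). The libraries held 58214060 to 80887889 reads, of which the 10 genes took 0.252% to 0.331%. The 14 chondrocyte markers all had reads in every library and summed to 101252 to 134626 CPM in control libraries and 94058 to 117933 CPM in *Sephs1* siRNA libraries. The 8 fibroblast markers summed to 19206 to 25403 and 17778 to 21740 CPM, and the 8 osteoblast and hypertrophic markers to 245 to 1002 and 190 to 761 CPM. Macrophage and leukocyte markers (8 genes, with *Itgam*, *Tyrobp* and *Fcer1g* at 0), endothelial markers (5 genes, with *Cdh5* and *Emcn* at 0) and skeletal muscle markers (6 genes, with *Ckm* at 0) summed to at most 7.94, 0.363 and 9.30 CPM in any library.

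With *Sephs1* siRNA, none of the 10 genes differed from control at an adjusted p under 0.05 over all 14223 genes tested, in the edgeR fit without a block or with the replicate number as a block. *Chsy1*, the more abundant of both synthase genes by FPKM, had the smallest p, at 0.807 times its control level. *Chst11* and *Papss2*, which act in sulfation, were also lower in every replicate pair, and *Csgalnact1* and *Slc26a2* were higher in every pair. For each of these genes the fold between the groups was smaller than the spread among the control libraries, which includes differences between replicate numbers. By log2 fold change 5 of the 10 genes were above and 5 below 0, from -0.31 for *Chsy1* to 0.26 for *Chst3*, with a median of -0.03 beside a median of 0.01 over all genes tested.

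At an unadjusted p under 0.05 (the cutoff of the study's methods) 1 of the 10 genes was lower and 0 were higher without a block, where 3.63% of all genes tested were lower, 4.98% were higher and 8.62% were either. The count of 1 became 3 without control replicate 3, when *Papss2* (-0.40) was lower and *Chpf* (0.24) higher beside *Chsy1* (-0.42). It became 0 without control replicate 1 or 2 or *Sephs1* siRNA replicate 3. Without *Sephs1* siRNA replicate 2 it stayed at 1, but the gene was then *Csgalnact2* (-0.31, edgeR unadjusted p = 0.0309) and not *Chsy1*. With the block 3 were lower (*Chsy1*, *Chst11* and *Papss2*) and 1 was higher (*Slc26a2*), where the shares over all genes were 11.2% lower and 13.1% higher. At an adjusted p under 0.05 the background was 0.0141% of genes without the block and 1.65% with it. No gene of the 10 had groups of libraries that did not overlap, while 14.9% of all genes tested did. The count of 4 genes lower in all 3 replicate pairs (*Csgalnact2*, *Chsy1*, *Chst11* and *Papss2*) and of 2 higher in all 3 (*Csgalnact1* and *Slc26a2*) stood beside background shares of 23.6% and 24.2%. For 9 of the 10 genes the highest control library exceeded the lowest by a larger factor than that between the groups. *Chst3* was the exception, and its difference rested on 1 *Sephs1* siRNA library. The share of all genes tested with such a control spread was not counted. That spread also holds the differences between replicate numbers, which the ratios within pairs leave out.

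**Figure D1:**
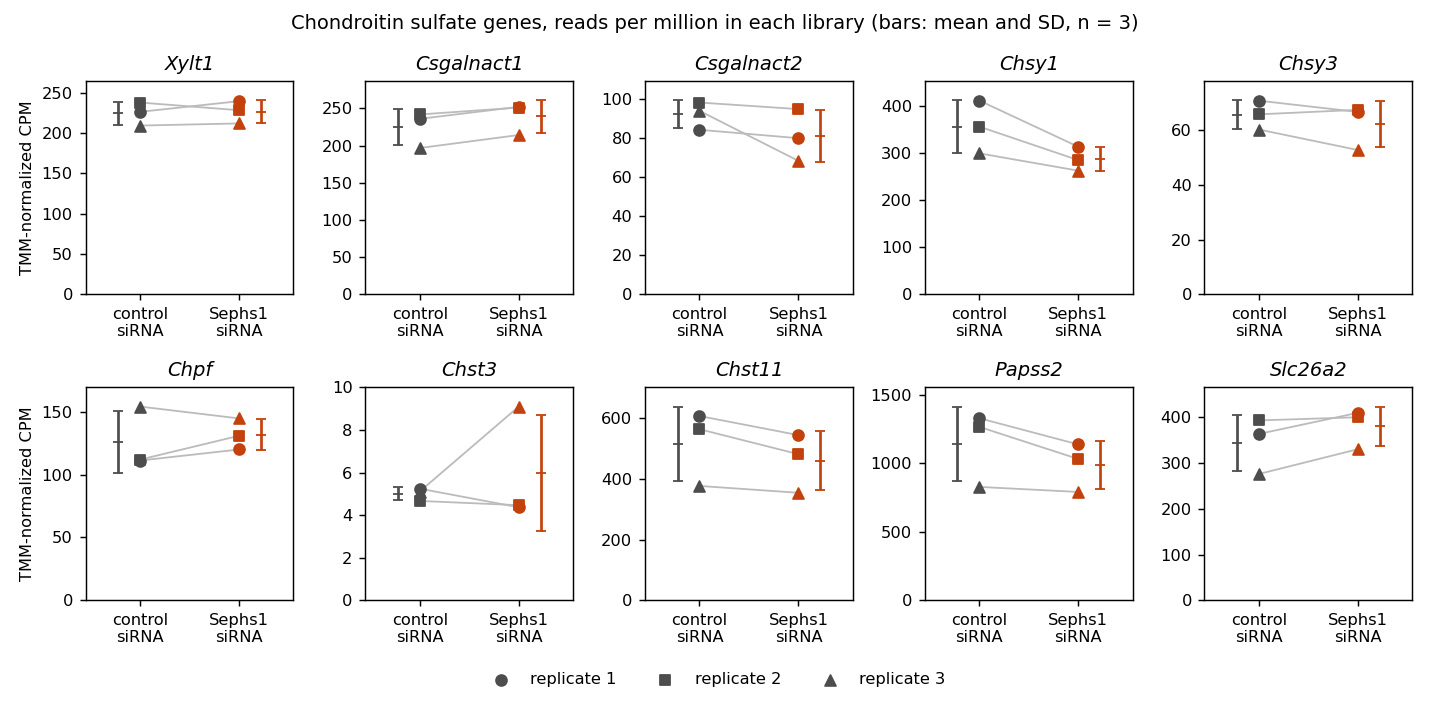
Each panel plots the TMM-normalized CPM of 1 gene (vertical axis, from 0) in the 3 control siRNA and 3 *Sephs1* siRNA libraries, with lines joining libraries of the same replicate number and bars for the mean and SD (n = 3). The groups overlap in all 10 panels, and *Chst11* and *Papss2* are lowest in the 2 libraries of replicate 3.

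Levels per transcript length were compared on the FPKM scale, which the authors scaled to length and library size. *Papss2* led the 10 genes at 304 ± 66.3 FPKM (SD, n = 3) in control libraries and stood at the 98.7th percentile of the genes tested. *Chst11* (89.7 ± 19.3 FPKM), *Slc26a2* (85.6 ± 13.4 FPKM), *Chsy1* (81.7 ± 10.996 FPKM) and *Xylt1* (70.5 ± 3.24 FPKM) followed, and the control ranges of neighbours in this stretch overlapped, so their order was not resolved. *Csgalnact1* (54.4 ± 4.89 FPKM) and *Chpf* (39.2 ± 8.83 FPKM) lay below *Xylt1* and overlapped each other, while *Csgalnact2* (24.2 ± 2.19 FPKM) and *Chsy3* (16.3 ± 0.924 FPKM) lay apart from their neighbours. *Chst3* was lowest at 0.789 ± 0.0538 FPKM, the 20.7th percentile. The leading gene of each enzyme pair kept its place in every library. *Papss2* stood 5.00 to 7.65 times above *Papss1* by FPKM, *Xylt1* 10.00 to 13.6 times above *Xylt2*, *Chsy1* 3.91 to 5.39 times above *Chsy3*, and *Csgalnact1* 1.92 to 2.89 times above *Csgalnact2*. Of the 4-O-sulfotransferases, *Chst11* exceeded *Chst12* by 1.60 to 2.41 times, and it exceeded *Chst3*, a 6-O-sulfotransferase gene, by 43.2 to 138 times. *Chst3* is not the only other sulfotransferase gene with reads. *Chst7*, of the wider pathway, stood above it at 2.39 ± 0.712 FPKM in control libraries, so the ratio to *Chst3* alone does not compare all 4-O with all 6-O sulfation.

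**Figure D2:**
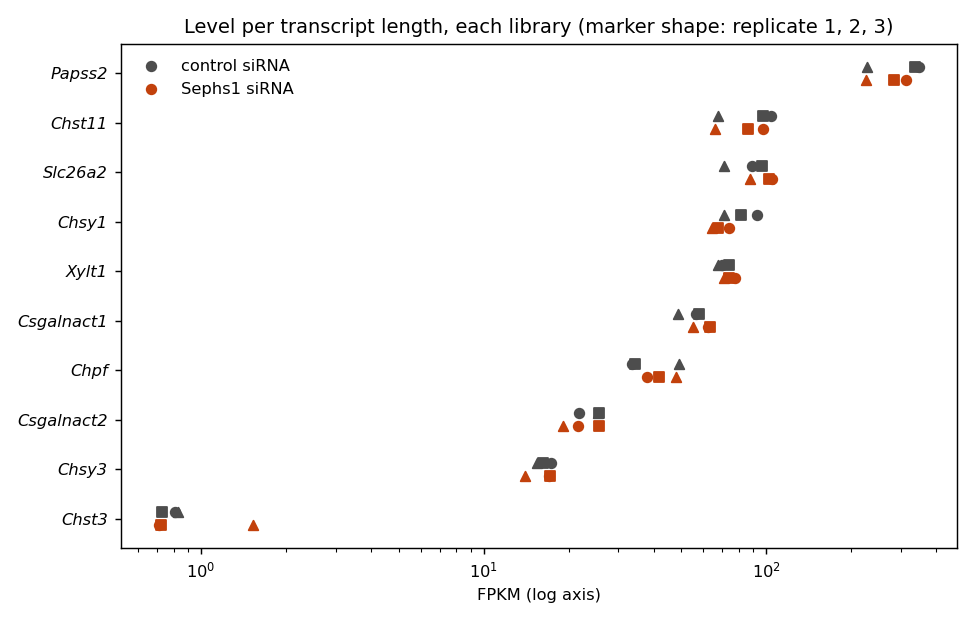
Points give the authors' FPKM (horizontal log axis) of each gene in each library, in grey for control siRNA and orange for *Sephs1* siRNA, with the marker shape for the replicate. *Papss2* leads at 228 to 349 FPKM in control libraries and *Chst3* is lowest, with 1 *Sephs1* siRNA library at 1.53 FPKM.

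Chain initiation was covered by 3 genes, and none had an unadjusted p under 0.05 in either edgeR fit of all 6 libraries. *Xylt1* (gene 233781, chromosome 7 from 117380979 to 117667630 in GRCm38, the mm10 build) encodes the xylosyltransferase that attaches the first linker sugar. It stood at 227, 238 and 209.5 CPM in the control replicates and 239.9, 229 and 212 CPM in the *Sephs1* siRNA replicates. The groups lay on top of each other, with a log2 fold change of 0.01 and a 95% interval of -0.17 to 0.20. *Csgalnact1* (chromosome 8 from 68356781 to 68735621), the N-acetylgalactosaminyltransferase needed for normal cartilage in mice, stood at 236, 242 and 197 CPM against 252, 251 and 214 CPM. Each *Sephs1* siRNA library was above the control of its number, and the replicate 3 libraries were the lowest of both groups. The log2 fold change was 0.09 (SE 0.11, adjusted p = 0.833), and with the block 0.09 (SE 0.04, adjusted p = 0.214). Without the block it ran from 0.0014 without control replicate 3 to 0.16 without *Sephs1* siRNA replicate 3. *Csgalnact2* (chromosome 6 from 118107452 to 118139140), its paralog, stood at 84.2, 98.1 and 93.9 CPM against 79.9, 94.8 and 68.2 CPM. Most of its difference lay in replicate pair 3, at -0.46 on the log2 scale, against -0.08 and -0.05 in pairs 1 and 2. Its log2 fold change was -0.19 (SE 0.13, adjusted p = 0.735), and with the block -0.20 (SE 0.09, adjusted p = 0.254). Without the block it ran from -0.31 without *Sephs1* siRNA replicate 2 to -0.077 without *Sephs1* siRNA replicate 3.

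Of the 3 chain extension genes, *Chsy1* was lower at an unadjusted p. *Chsy1* (gene 269941, chromosome 7 from 66109492 to 66173798) encodes a synthase with both the glucuronic acid and the N-acetylgalactosamine transferase activity. Its control replicates 1, 2 and 3 stood at 411, 356 and 299 CPM, and its *Sephs1* siRNA replicates at 313, 284 and 262 CPM. Both *Sephs1* siRNA replicates 2 and 3 were below every control library, while replicate 1 lay above control replicate 3. The log2 fold change was -0.31 (SE 0.13, 95% interval -0.62 to -0.005), with an unadjusted p of 0.0474 and an adjusted p of 0.573. With the block it was -0.30 (SE 0.05, unadjusted p = 0.00105, adjusted p = 0.0548), and the ratios were -0.39, -0.32 and -0.19 on the log2 scale in pairs 1, 2 and 3. Its direction held under all 17 alternative settings, at log2 fold changes of -0.42 to -0.20, and its unadjusted p was under 0.05 in 10 of them. The 4 libraries without which it lost that p were control replicates 1 (-0.20, unadjusted p = 0.139) and 2 (-0.32, unadjusted p = 0.0903) and *Sephs1* siRNA replicates 2 (-0.30, unadjusted p = 0.103) and 3 (-0.25, unadjusted p = 0.133).

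*Chsy3* (chromosome 18 from 59175340 to 59411336), a second synthase, stood at 70.9, 65.9 and 60.3 CPM against 66.7, 67.5 and 52.8 CPM. Pair 2 went the other way from pairs 1 and 3, and the log2 fold change was -0.08 (SE 0.12, adjusted p = 0.871). *Chpf* (chromosome 1 from 75474569 to 75479471), the chondroitin polymerizing factor that works as a partner of the synthases, stood at 111, 112 and 154 CPM against 120.0, 131 and 145 CPM. Its replicate 3 libraries were the highest of both groups, and pair 3 went against pairs 1 and 2. Its log2 fold change was 0.07 (SE 0.15, adjusted p = 0.906) and turned below 0 when control replicate 1 (-0.022), control replicate 2 (-0.018) or *Sephs1* siRNA replicate 3 (-0.0040) was left out.

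The sulfotransferase genes differed in level and in direction. *Chst11* (gene 58250, chromosome 10 from 82984440 to 83195904) encodes the chondroitin 4-O-sulfotransferase whose loss in mice causes severe chondrodysplasia. It stood at 607, 564 and 377 CPM in control replicates and at 544, 481 and 354 CPM in *Sephs1* siRNA replicates. The *Sephs1* siRNA library was the lower one in each pair, by -0.16, -0.23 and -0.09 on the log2 scale, while the highest control library exceeded the lowest 1.61 times. The log2 fold change was -0.17 (SE 0.22, adjusted p = 0.853), and with the block -0.16 (SE 0.04, unadjusted p = 0.00733, adjusted p = 0.0924). Without the block, the value ran from -0.35 without control replicate 3 to -0.0091 without *Sephs1* siRNA replicate 3.

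*Chst3* (chromosome 10 from 60181527 to 60222114), a chondroitin 6-O-sulfotransferase gene, was the only member with few reads, from 293 to 596 in a library. It stood at 5.25, 4.67 and 5.11 CPM against 4.37, 4.47 and 9.10 CPM. *Sephs1* siRNA replicate 3 was far above the other 5 libraries, and replicates 1 and 2 were below every control library. The log2 fold change of 0.26 (SE 0.30, adjusted p = 0.827) became -0.18 without that library, so its sign rested on 1 library. The counting error of its lowest library was 5.84%, well under the gap to that library.

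Sulfate supply was covered by 2 genes whose pairs lay on opposite sides of 0. *Papss2* (gene 23972, chromosome 19 from 32595669 to 32667187) encodes the PAPS synthase on which cartilage depends. It stood at 1329, 1266 and 828 CPM in control replicates and at 1137, 1031 and 791 CPM in *Sephs1* siRNA replicates. As for *Chst11*, both libraries of replicate 3 were the lowest of their groups and each *Sephs1* siRNA library was below the control of its number. The log2 ratio was -0.22, -0.30 and -0.07 in pairs 1, 2 and 3. The log2 fold change was -0.21 (SE 0.21, adjusted p = 0.809), and with the block -0.20 (SE 0.05, unadjusted p = 0.00805, adjusted p = 0.0949). Leaving out the same libraries moved it to -0.40 (control replicate 3 out) and -0.073 (*Sephs1* siRNA replicate 3 out). *Slc26a2* (gene 13521, chromosome 18 from 61196854 to 61211596) encodes the sulfate transporter of the cell membrane. It stood at 363, 393 and 276 CPM against 409, 399.7 and 330.0 CPM, above the control of its number in each pair. Its log2 fold change was 0.14 (SE 0.15, adjusted p = 0.811), and with the block 0.15 (SE 0.05, unadjusted p = 0.0284, adjusted p = 0.159). Without control replicate 3 nearly the whole difference was gone, at 0.0062, and the highest value was 0.24 without control replicate 2.

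**Figure D3:**
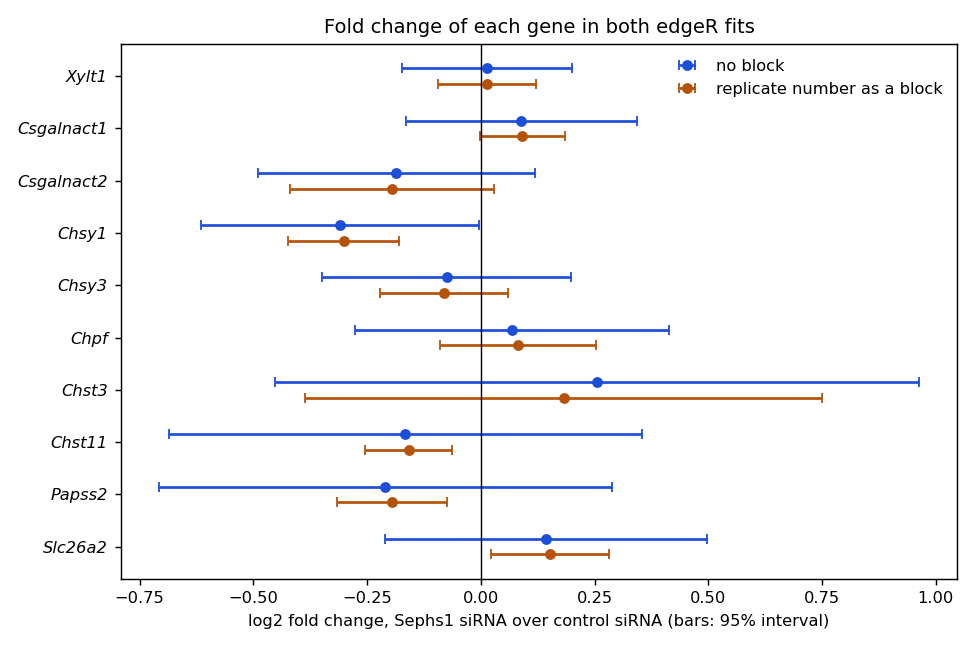
Points give the log2 fold change of each gene, *Sephs1* siRNA over control siRNA (horizontal axis), with 95% intervals from edgeR, in blue without a block and in brown with the replicate number as a block. Without the block only the *Chsy1* interval leaves out 0, and with the block those of *Chsy1*, *Chst11*, *Papss2* and *Slc26a2* do, before any adjustment.

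The 10 genes also varied with the replicate number. All 10 standard errors were smaller with the block, by a factor of 1.31 for *Chst3* and of 5.68 for *Chst11*. This was not particular to them. In edgeR 8.62% of all genes tested had an unadjusted p under 0.05 without the block and 24.3% with it. The share of all genes with a smaller standard error was not counted. In both groups the replicate 3 library was the lowest for *Xylt1*, *Csgalnact1*, *Chsy1*, *Chsy3*, *Chst11*, *Papss2* and *Slc26a2*, and the highest for *Chpf*. *Acan*, the gene of the main chondroitin sulfate proteoglycan aggrecan, had the same pattern, with 11614, 11492 and 6796 CPM in control replicates 1, 2 and 3 and 9280, 8857 and 6820 CPM in *Sephs1* siRNA replicates. The osteoblast and hypertrophic markers were also lowest in those libraries, at 245 and 190 CPM in sum, against 726 to 1002 CPM in the other 4, and 7 of the 8 were tested between the siRNAs. Of these, 2 were lower at an unadjusted p without the block and 0 higher, and with it 5 were lower and 1 higher. The median of their log2 fold changes was -0.35. Of the 14 chondrocyte markers 1 was lower at an unadjusted p without the block, and 10 were lower and 1 higher with it. Of the 8 fibroblast markers none passed an unadjusted p without the block, and 4 were lower and 2 higher with it. Beside these counts, 3.63% of all genes were lower and 4.98% higher without the block, and 11.2% and 13.1% with it. The 5 markers of these lists that passed an adjusted p with the block, named after their values were seen, were *Alpl* (log2 fold change -1.29 with the block, adjusted p = 0.0183), *Col10a1* (-0.34, adjusted p = 0.0472), *Cnmd* (-0.47, adjusted p = 0.0392), *Col9a1* (-0.22, adjusted p = 0.0446) and *Col1a2* (-0.26, adjusted p = 0.0251), all lower. The part of these 3 lists in the values of the 10 genes was not tested. In bulk RNA, fewer cells of a type and less RNA per cell cannot be told apart. Without the libraries of replicate 3 and with the block, which leaves 2 pairs, *Chsy1* (-0.36, adjusted p = 0.00691), *Chst11* (-0.19, adjusted p = 0.0368) and *Papss2* (-0.26, adjusted p = 0.01003) passed edgeR at an adjusted p under 0.05, all lower, where 2.75% of the genes tested were. None of the 3 was called with the block and without the libraries of replicate 1 or 2, where their adjusted p was 0.162 or more.

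**Figure D4:**
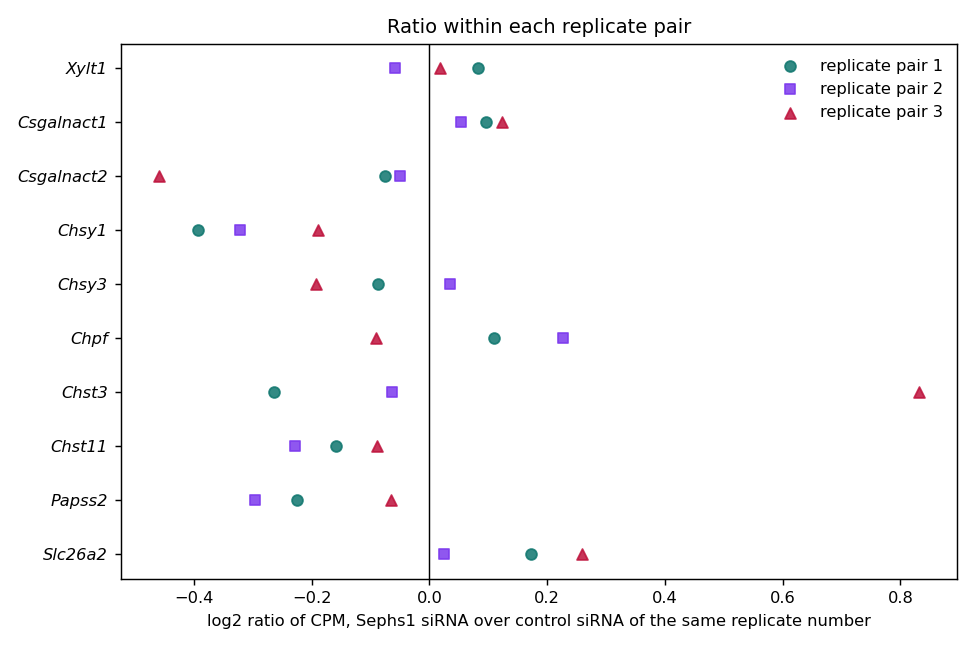
Each point is the log2 ratio of TMM-normalized CPM between the *Sephs1* siRNA and the control library of 1 replicate number (horizontal axis, with 0 for no difference). All 3 points lie left of 0 for *Csgalnact2*, *Chsy1*, *Chst11* and *Papss2* and right of 0 for *Csgalnact1* and *Slc26a2*, and *Chst3* in pair 3 lies farthest out at 0.83.

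The promoters of *Chsy1*, *Chst11* and *Papss2* are shown because these 3 genes were lower in every pair and at an unadjusted p with the block. Each sequence runs from 250 bases before to 50 bases after a listed start site in RefSeq (GRCm38.p6), read on the plus strand on which all 3 genes lie, and capitals mark a GC box (GGGCGG, either strand) or an E-box (CACGTG). They lie at chr7:66109242-66109541, chr10:82985247-82985546 and chr19:32595465-32595764, respectively. The *Chst11* window lies inside the gene, past its start at 82984440, so the sequence before that start was not read. *Papss2* and *Csgalnact2* each had 2 listed promoters, and only the outermost was read.
*Chsy1*: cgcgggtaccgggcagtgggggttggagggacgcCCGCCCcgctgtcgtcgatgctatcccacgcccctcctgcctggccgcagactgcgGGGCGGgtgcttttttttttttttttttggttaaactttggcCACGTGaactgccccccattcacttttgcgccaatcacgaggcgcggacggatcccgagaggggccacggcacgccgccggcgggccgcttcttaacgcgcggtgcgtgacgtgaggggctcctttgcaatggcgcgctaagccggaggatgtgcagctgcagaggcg
*Chst11*: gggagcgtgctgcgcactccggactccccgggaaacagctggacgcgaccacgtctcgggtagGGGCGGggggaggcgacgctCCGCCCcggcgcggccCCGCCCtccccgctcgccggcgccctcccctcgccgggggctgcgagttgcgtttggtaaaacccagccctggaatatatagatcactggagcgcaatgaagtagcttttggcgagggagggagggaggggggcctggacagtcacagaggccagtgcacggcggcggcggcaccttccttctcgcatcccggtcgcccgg
*Papss2*: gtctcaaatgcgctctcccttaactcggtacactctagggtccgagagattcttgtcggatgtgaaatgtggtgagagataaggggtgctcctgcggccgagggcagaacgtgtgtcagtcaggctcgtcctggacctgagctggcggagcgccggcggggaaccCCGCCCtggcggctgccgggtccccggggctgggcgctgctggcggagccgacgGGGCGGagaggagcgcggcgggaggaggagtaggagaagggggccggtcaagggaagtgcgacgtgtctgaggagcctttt
All 3 promoters were rich in G and C, at 65.3%, 71.0% and 66.3% of bases and 34, 34 and 27 CpG dinucleotides, where the medians over 27025 promoters of the same length were 52.7% and 7. *Chsy1*, *Chst11* and *Papss2* held 2, 3 and 2 GC boxes, a motif found in 35.9% of all these promoters, and *Chsy1* held 1 E-box, found in 7.24%. None of the 3 held the letters TATAAA (14.2% of promoters) or ACAAT (31.5%), the core bound by SOX proteins, on either strand. *Csgalnact2*, *Chpf* and *Chst3*, the other members with a listed promoter, also held GC boxes and neither of those motifs. They were as rich in G and C, at 67%, 71.7% and 70% of bases, with 24, 26 and 22 CpG dinucleotides.

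The wider pathway was read from 34 other genes for the linker, chain elongation, further sulfation and epimerization, PAPS synthesis and the sugar donors, of which 33 were tested. None was called at an adjusted p without the block, 2 were lower and 0 were higher at an unadjusted p under 0.05, and their median log2 fold change was -0.02. With the block 5 were lower and 0 were higher at an unadjusted p. The shares over all genes were 3.63% lower and 4.98% higher without the block, and 11.2% and 13.1% with it. The groups did not overlap for 5 of the 33, all lower, where 1008 of the 14223 genes tested were lower without overlap. The count of 2 was 1 without control replicate 1 or 3 or *Sephs1* siRNA replicate 2, and 4 without control replicate 2. *Gnpnat1*, which makes N-acetylglucosamine-6-phosphate on the way to the UDP-sugar precursors, stood at 62.8, 65.3 and 55.2 CPM against 49.4, 51.5 and 45.0 CPM. The groups did not overlap, and its log2 fold change was -0.33 (adjusted p = 0.413, and adjusted p = 0.0387 with the block). *Dse*, the epimerase that turns chondroitin into dermatan sulfate, stood at 179, 175 and 182 CPM against 165, 159 and 151 CPM, also without overlap, with a log2 fold change of -0.17 (adjusted p = 0.522, and 0.114 with the block). The linker genes other than *Xylt1* had a median of -0.004 and ran from -0.30 to 0.04. Of these 6, 0 were at an unadjusted p under 0.05 without the block, and 1 was lower with it.

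Related lists were read in the same way, beside shares over all genes of 3.63% lower and 4.98% higher (11.2% and 13.1% with the block). Of 20 heparan sulfate genes, whose chains share the linker with chondroitin sulfate, 17 were tested, and 3 were lower and 0 higher at an unadjusted p (3 and 1 with the block), with 0 at an adjusted p in either fit. They were *Glce*, an epimerase (-0.15), *Hs6st1*, a 6-O-sulfotransferase (-0.21), and *Sulf1*, an extracellular sulfatase (-0.23). Of 14 core protein genes 11 were tested and 0 passed an unadjusted p, and with the block 4 were higher and 2 lower. *Dcn*, which carries a single chondroitin or dermatan sulfate chain, stood at 1559, 1519 and 1321 CPM against 1885, 1822 and 1494 CPM, with a log2 fold change of 0.24 (adjusted p = 0.638, and adjusted p = 0.0392 with the block). For *Acan* the log2 fold change stood at -0.26 (adjusted p = 0.792, and 0.145 with the block). It ran from -0.47 without control replicate 3 to -0.14 without *Sephs1* siRNA replicate 3, and with the block and without the libraries of replicate 3 it was -0.35 (adjusted p = 0.00227).

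The 12 lysosomal genes that degrade these chains were all tested, and 11 had a log2 fold change above 0, with a median of 0.13. Over all 14223 genes tested, 7400 were above 0, with a median of 0.01. At an unadjusted p 3 of the 12 were higher and 0 lower (4 and 0 with the block), where 4.98% of all genes were higher (13.1% with the block). The groups did not overlap for 3 of the 12, all higher, where 1110 of the 14223 genes were higher without overlap. *Hexa*, a hexosaminidase subunit gene, stood at 218, 215 and 212 CPM against 256, 253 and 250.5 CPM. Its log2 fold change was 0.23 (adjusted p = 0.392, and adjusted p = 0.0495 with the block). In DESeq2 without a block its adjusted p was 0.0297, where 215 of the 14223 genes tested passed. The calls of *Gnpnat1*, *Dcn* and *Hexa* with the block were lost without the libraries of replicate number 1 or 2 (adjusted p from 0.129 to 0.258).

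**Figure D5:**
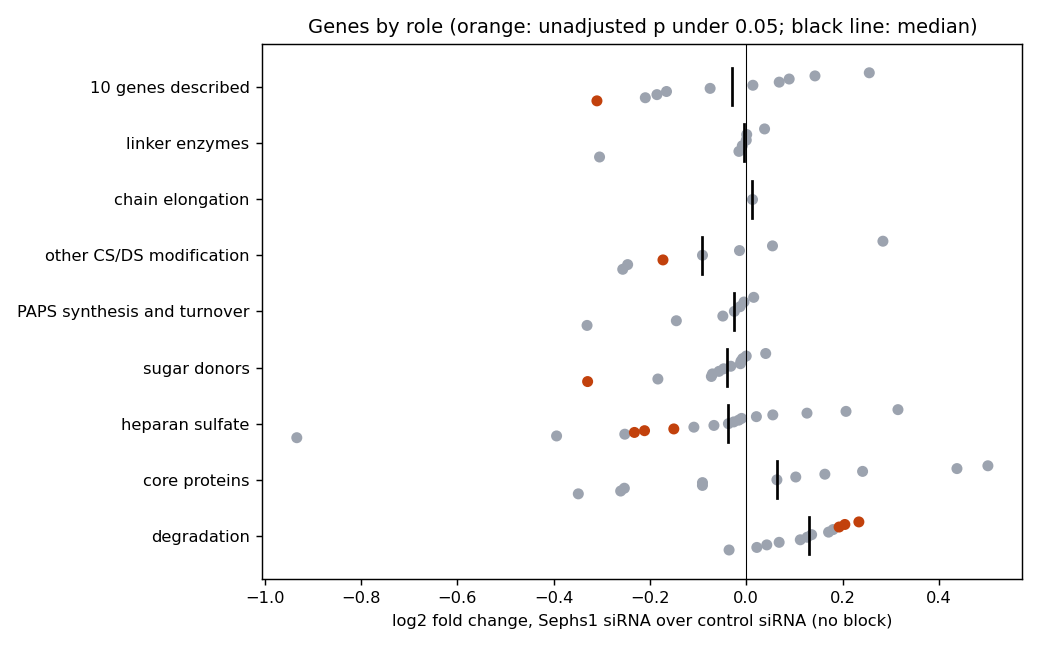
Points give the log2 fold change without a block (horizontal axis) of the 10 genes, of the tested genes of the wider pathway by role, and of the heparan sulfate, core protein and degradation lists, with orange for an unadjusted p under 0.05 and a black line for the median. The median lies at -0.03 for the 10 genes and at 0.13 for the degradation genes.

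By Pearson correlation of log2 CPM over the 6 libraries, among 10050 genes with a mean of at least 5 CPM, the genes most like *Chsy1* were *Hist1h2al* (0.996), *Ube2r2* (0.995), *Loxl2* (0.995), *Leprotl1* (0.994) and *Gnl3l* (0.992). These values are a description, since the libraries share replicate numbers and the highest of many correlations were taken.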

How the data were processed

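Stranded poly-A libraries were made from 3 control siRNA and 3 *Sephs1* siRNA cultures, which the study's methods call biological replicates. The authors aligned reads with HISAT2 2.1.0 (mm10) and estimated abundance with StringTie 1.3.4d. The deposited table gives read counts per gene, not normalized, and FPKM values that the authors scaled to transcript length and library size. Whether counting used strand is not given in the sources used here.

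As in the study's methods, genes had to have a read in every library. Counts were compared with edgeR 4.0.16 (R 4.3.3, TMM, quasi-likelihood test, 2-sided, Benjamini-Hochberg adjustment over 14223 genes). Alternatives were DESeq2 1.42.0, limma 3.58.1 on FPKM with a pseudocount of 1 or 0.1, other scalings and filters, the block, and each library left out. The fits were run on simulated data for their recovery of planted changes. Those changes were larger than the differences of the members, so calls at the size of the members were not tested. Counting error was 0.317% to 5.84% per member and library.

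The methods name no pairing. Deviations from the group means of same-numbered libraries correlated at 0.499, 0.257 and 0.483 over 14223 genes. As each exceeded 0.1, libraries of 1 number were treated as a pair, while the main fit had no block. Libraries of 1 group all differed beyond sampling noise.

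The 10 members and the lists were chosen with earlier results of these data known. Named genes were the members, *Sephs1*, *Acan*, genes of the pathway, heparan sulfate, core protein and degradation lists at an unadjusted p under 0.05 or an adjusted p under 0.05 with the block, and the 5 genes most like the member of smallest p (log2 CPM, prior count 1). Some list genes that met this rule are not reported here. RefSeq promoters were listed for 6 of the 10 members.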

Additional observations from a re-analysis of the deposited data

How the results depend on the processing

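No member passed an adjusted p under 0.05 except in 1 of 17 alternatives, the block without the libraries of replicate number 3, where 3 were lower (*Chsy1* -0.36, *Chst11* -0.19, *Papss2* -0.26). Of 170 values of single members, 158 kept their side and direction, 3 gained a call and 9 changed sign, all 9 for *Xylt1*, *Chsy3*, *Chpf* or *Chst3*. The differences of these genes were smaller than their standard errors without the block. So were those of *Csgalnact1*, *Chst11*, *Papss2* and *Slc26a2*, which kept their sign. The count of members at an unadjusted p, 1 as reported, was 0 with scaling to library size only and 0 in limma on FPKM with either pseudocount. It was 4 with the block (3, 3 and 4 with the block and without replicate number 1, 2 or 3), and it ran from 0 to 3 with each library left out. The median log2 fold change, -0.03 as reported, was 0.030 with library size only and 0.025 in limma with either pseudocount, -0.064 and -0.057 with the block and without number 1 or 2, and from -0.093 to -0.0065 with each library left out. The count of other pathway genes, 2 as reported, was 3 with RLE factors, no filter, filterByExpr and DESeq2, 1 with library size only and with both pseudocounts, 5 with the block and with the block without each number, and 1 to 4 with each library left out. *Sephs1* itself passed an adjusted p under 0.05 in DESeq2 (-0.77), with the block (-0.79) and with the block without number 1 (-0.96) or number 3 (-0.67).

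With each library left out, *Xylt1* ranged from -0.043 to 0.059, *Chsy3* from -0.14 to 0.031, *Chpf* from -0.022 to 0.24 and *Chst3* from -0.18 to 0.43. Without a change of sign, *Csgalnact1* ranged from 0.0014 to 0.16, *Csgalnact2* from -0.31 to -0.077, *Chsy1* from -0.42 to -0.20, *Chst11* from -0.35 to -0.0091, *Papss2* from -0.40 to -0.073 and *Slc26a2* from 0.0062 to 0.24. With the block, *Xylt1* was -0.035 without number 1 and *Chst3* was -0.16 without number 3. Of 170 values of the 10 other genes that met the naming rule, 160 stayed on their side and 10 gained a call. The cause of these changes was not tested. With 3 libraries a group and 4 residual degrees of freedom (2 with the block), precision differed between members, from a 95% interval of -0.17 to 0.20 for *Xylt1* to one of -0.45 to 0.96 for *Chst3*. For *Chst3*, at about 5 CPM, the counting error was 5.84% in its lowest library, while its *Sephs1* siRNA libraries spread from 4.37 to 9.10 CPM. Transcript isoforms were not analysed here.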
